A study of Mus musculus with 12 samples.

Results

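De novo lipogenesis, in which acetyl-CoA is built into fatty acids, and triglyceride synthesis, in which fatty acids are joined to glycerol, were followed through 37 genes in mature white adipocytes. The genes were taken by symbol from the deposited table of raw counts, which lists 20295 genes, and all 37 were found in it. All 37 also passed the filter on low counts that left 13543 genes for testing. The cells were mature adipocytes (eWAs) floated out of collagenase-digested epididymal fat of lean male C57/BL6J mice from Charles River, for which the labels name no genetic change, and kept for 2 days in a 3-dimensional hydrogel. The labels do not give the age of the mice or say whether animals were pooled. The 12 libraries form 4 groups of 3. The group labelled DMSO received the vehicle, the group ISO received isoproterenol, an agonist of all β-adrenergic receptors, for 3 h, and the group Lip received lipase inhibitors. The group Lip+ISO received the inhibitors first and then ISO for 3 h. Atglistatin, which blocks ATGL, and CAY10499, which blocks HSL, are the inhibitors named in the study's methods. A figure legend of the study names SR-3420, an activator of lipolysis, where its text and the sample titles name ISO, and the titles were followed. The comparisons ask how β-adrenergic stimulation changed these genes and whether blocking the lipases altered that change.

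White adipocytes store energy as triglyceride and release it by lipolysis, which β-adrenergic signals start and which ATGL and HSL carry out. In the opposite direction, acetyl-CoA is carboxylated to malonyl-CoA, assembled into palmitate, and then elongated and desaturated. Fatty acids from this route or from outside the cell are activated to acyl-CoA and added step by step to glycerol 3-phosphate. Part of the fatty acid set free by lipolysis is esterified again in the same cell, so the last steps of the pathway can run while triglyceride is being broken down.

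Sequencing depth was 22632220 to 43707557 counts per library, a 1.93-fold range, and the 37 genes took 2.19 to 2.64% of the counts. Levels below are given as CPM, the counts of a gene per unit of its library total after TMM scaling, on which 3 counts correspond to 0.0686 to 0.133 CPM, and a difference is given as a log2 fold change with its standard error (SE). A gene is said to have risen or fallen where edgeR's quasi-likelihood test gave a Benjamini-Hochberg adjusted p, taken over all tested genes, at or under 0.05. Where no other fit is named, edgeR stands for the fit of all 12 libraries with TMM scaling and no replicate block. The study describes such libraries as coming from biologically independent experiments, but the mice used in each are not given. The p-values measure the spread between libraries of the same group, not matched by replicate number, and cannot be read as a spread between mice. The cells carried adipocyte markers in every library, with the summed level of 8 markers at 26310 to 41170 CPM. Of these 8, Lep, which encodes leptin, fell in both ISO comparisons (log2 fold changes -1.84 and -1.67), and Lipe, which encodes HSL, was lower in Lip+ISO than in Lip (-0.44, adjusted p = 0.0416) or in ISO (-0.65, adjusted p = 0.0165). Markers of other cells were also counted, and several were higher with ISO. The sum of 8 macrophage markers was 50.67 to 65.21 CPM with DMSO, 108.5 to 161.3 CPM with ISO, 54.03 to 60.39 CPM with Lip and 69.47 to 119.6 CPM with Lip+ISO, and 6 of the 8 rose in ISO against DMSO. The sum of 8 fibroblast and preadipocyte markers was 388 to 691.5 CPM, 753.5 to 1010 CPM, 505.7 to 548.1 CPM and 459.1 to 667.5 CPM in the same order, with 3 of 8 higher in ISO than in DMSO and 3 of 8 lower in Lip+ISO than in ISO. The sum of 8 endothelial markers was 103.5 to 200.5 CPM, 247.3 to 452.9 CPM, 52.29 to 177 CPM and 82.84 to 246.5 CPM, with 1 of 8 higher in ISO. For 6 mesothelial markers the sums were 24.79 to 56.61 CPM, 65.36 to 75.6 CPM, 14.36 to 59.81 CPM and 41.88 to 51.78 CPM, with 1 of 6 higher in ISO. The sum of 5 markers of epididymal epithelium stayed at or under 0.7487 CPM. None of the listed markers was at 0 in every library. The part of these cells in the results on the 37 genes was not tested. In such bulk libraries, fewer cells of a type and less RNA per cell cannot be told apart.

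The stretches just upstream of 6 genes that moved with ISO are printed first, since the results described below turn in part on these genes. They are the 150 bases before the RefSeq start of each gene, taken from the RefSeq promoter table (GRCm38.p6), each with 1 exact match in mm9, whose coordinates are given. Capitals mark the CCAAT box (CCAAT, or ATTGG on the opposite strand) and, in Mlxipl, the sterol regulatory element (TCACNCCAC) that SREBP factors can bind. The first 4 genes fell with ISO in at least 1 of the ISO comparisons and the last pair rose. Acaca, Gpam and Lpin2, which also fell, and Acly, Agpat2 and Lpin1, which also rose, had windows too. Their stretches held none of the motifs searched and are not printed.
Acacb, chr5:114615377-114615526, plus strand: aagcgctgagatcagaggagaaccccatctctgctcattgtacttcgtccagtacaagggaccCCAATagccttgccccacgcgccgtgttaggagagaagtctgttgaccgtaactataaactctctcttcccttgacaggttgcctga
Fasn, chr11:120685862-120686011, minus strand: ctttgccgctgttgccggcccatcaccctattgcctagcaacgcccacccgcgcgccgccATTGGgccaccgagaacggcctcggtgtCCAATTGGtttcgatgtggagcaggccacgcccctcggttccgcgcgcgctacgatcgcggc
Fads3, chr19:10115888-10116037, plus strand: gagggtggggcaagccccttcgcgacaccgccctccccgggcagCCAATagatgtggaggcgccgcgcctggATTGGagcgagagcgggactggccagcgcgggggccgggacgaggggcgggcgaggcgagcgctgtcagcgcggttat
Mlxipl, chr5:135582611-135582760, plus strand: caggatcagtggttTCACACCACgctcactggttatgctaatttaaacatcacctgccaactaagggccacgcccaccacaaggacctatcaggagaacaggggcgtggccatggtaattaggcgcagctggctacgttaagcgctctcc
Acsl3, chr1:78654250-78654399, plus strand: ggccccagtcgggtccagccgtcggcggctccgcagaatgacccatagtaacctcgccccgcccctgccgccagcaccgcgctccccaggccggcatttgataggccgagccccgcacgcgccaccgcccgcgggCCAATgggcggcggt
Acsl4, chrX:138825079-138825228, minus strand: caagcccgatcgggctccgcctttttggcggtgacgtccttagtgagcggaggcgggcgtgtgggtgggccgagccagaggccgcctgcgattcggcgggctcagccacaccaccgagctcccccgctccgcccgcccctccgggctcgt
In Acacb the box lies at -87 to -83 from the start, in Acsl3 at -15 to -11, and in Fads3 there is one on each strand. Fasn has 3 boxes, of which the pair in CCAATTGG lies on opposite strands and shares 2 bases. The sterol element of Mlxipl lies at -136 to -128, and the stretch of Acsl4 holds none of the motifs searched.

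A set of 6 motifs was searched on both strands over the whole RefSeq windows of 300 bases (250 before and 50 after the start), and 28 of the 37 genes had a window. The CCAAT box was in the windows of 13 of 28 genes, or 46.4%, against 37.4% of all 32851 windows. Of the genes with a window that fell with ISO in either ISO comparison, 3 of 7 held it (Acacb, Fads3 and Fasn), and of those that rose, 2 of 5 (Acsl3 and Acly). The sterol regulatory element was in 1 of 28 (Mlxipl) against 1.24% of all windows. The cAMP response element TGACGTCA was in 1 of 28 (Elovl5, which passed the test in no comparison) against 1.79%, and the E-box CACGTG in 3 of 28 (Elovl5, Lpin3 and Pcx) against 7.15%. The direct repeats DR1 and DR4 of nuclear receptors were in none of the 28, against 0.0396% and 0.0152% of all windows. No window was at hand for Elovl3, Scd1, Scd2, Fads1, Gpd1, Agpat5, Dgat1, Dgat2 and Mogat2, and that of Lpin1 belongs to another start than the one in the count table. These matches describe the letters in the windows only.

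Levels were compared between genes per kilobase of counted length. In the DMSO libraries Scd1, which encodes the main stearoyl-CoA desaturase of white fat, led with 2078 CPM per kb. It was followed by Gpd1 (896.6 CPM per kb) and Acsl1 (630.8 CPM per kb), Pcx (601.6 CPM per kb) and Pck1 (401 CPM per kb). The range of the 3 DMSO libraries did not overlap between Scd1 and Gpd1, or between Gpd1 and Acsl1, and did overlap between Acsl1 and Pcx. A plateau followed in which Dgat2, Agpat2 and Gpam lay at 161, 157 and 156.4 CPM per kb with overlapping ranges, next to Dgat1 at 139 CPM per kb. The de novo synthesis enzymes lay lower. Fasn stood at 75.8 CPM per kb, Acacb at 25.6 CPM per kb and Acaca at 8.66 CPM per kb. At the bottom were Mogat2 at 0.577 CPM per kb, Elovl3 at 0.128 CPM per kb and Elovl7 at 0.0546 CPM per kb. Elovl3 and Elovl7 had only 3 to 34 and 3 to 30 counts per library, and every other gene of the 37 had at least 18 counts in each library.

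**Figure D1:**
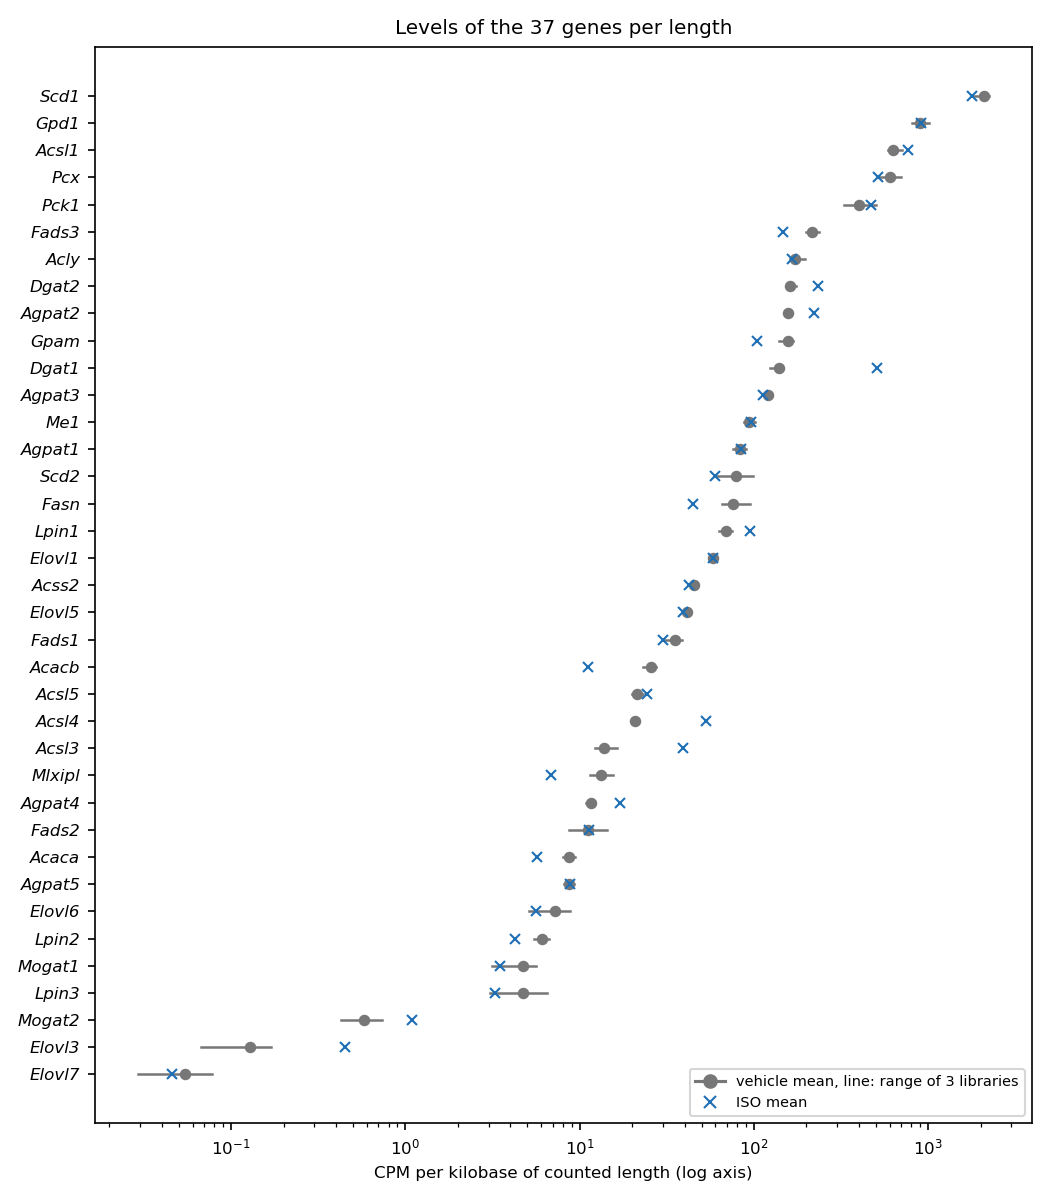
Mean level of each of the 37 genes in CPM per kilobase of counted length, on a log axis, with grey points and lines for the mean and range of the 3 DMSO (vehicle) libraries and blue crosses for the ISO mean. Scd1 stands at the top with 2078 CPM per kb in DMSO and Elovl7 at the bottom with 0.0546 CPM per kb, and the ISO crosses of Dgat1, Acsl3 and Acsl4 lie to the right of their DMSO ranges.

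With ISO, genes at several steps of the pathway changed, in both directions. The genes of malonyl-CoA and palmitate synthesis (Acaca, Acacb and Fasn) and the lipogenic transcription factor gene Mlxipl fell in ISO against DMSO. Fads3, Gpam and Lpin2 fell there as well, and no gene of acetyl-CoA and NADPH supply passed. Dgat1, Acsl3 and Acsl4, which activate fatty acids or complete the triglyceride, rose. These rises were the largest among the genes that passed, at 3.63-fold for Dgat1, 2.84-fold for Acsl3 and 2.56-fold for Acsl4, and the largest fall in the same comparison, ISO against DMSO, was that of Acacb, to a level 2.31-fold lower. In ISO against DMSO, 5 of the 37 genes rose, 7 fell and 25 did not pass the test. These 12 make 32.4% of the 37, where 26.2% of all 13543 tested genes passed, 12.3% higher and 13.9% lower. By 2-fold or more, 3 of the 37 rose and 1 fell, where 7.48% of all genes changed as much in either direction. With the inhibitors present in both groups (Lip+ISO against Lip), 5 rose, 5 fell and 27 did not pass, or 27%, where 27.3% of all genes passed, 11.5% higher and 15.8% lower. By 2-fold or more, 4 rose and 1 fell, where 7.35% of all genes did in either direction. The share of the 37 was close to that of all genes in both. The median log2 fold change of the 37 was -0.0616 in ISO against DMSO and 0.0773 in Lip+ISO against Lip, beside 0.00176 and -0.00407 over all genes. In all, 8 genes passed in both ISO comparisons, 3 higher (Acsl3, Acsl4 and Dgat1) and 5 lower (Acacb, Fads3, Gpam, Lpin2 and Mlxipl). A further 4 passed in ISO against DMSO alone (Acaca, Agpat2, Dgat2 and Fasn) and 2 in Lip+ISO against Lip alone (Acly and Lpin1). The share of all genes that passed in both, or in either alone, was not counted, so these counts do not set the 37 apart. Passing in one comparison and not in the other is not itself a difference, and the test of that difference is given further down. The macrophage, fibroblast, endothelial and mesothelial marker sums given above did not overlap between DMSO and ISO, and the macrophage sums did not overlap between Lip and Lip+ISO.

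**Figure D2:**
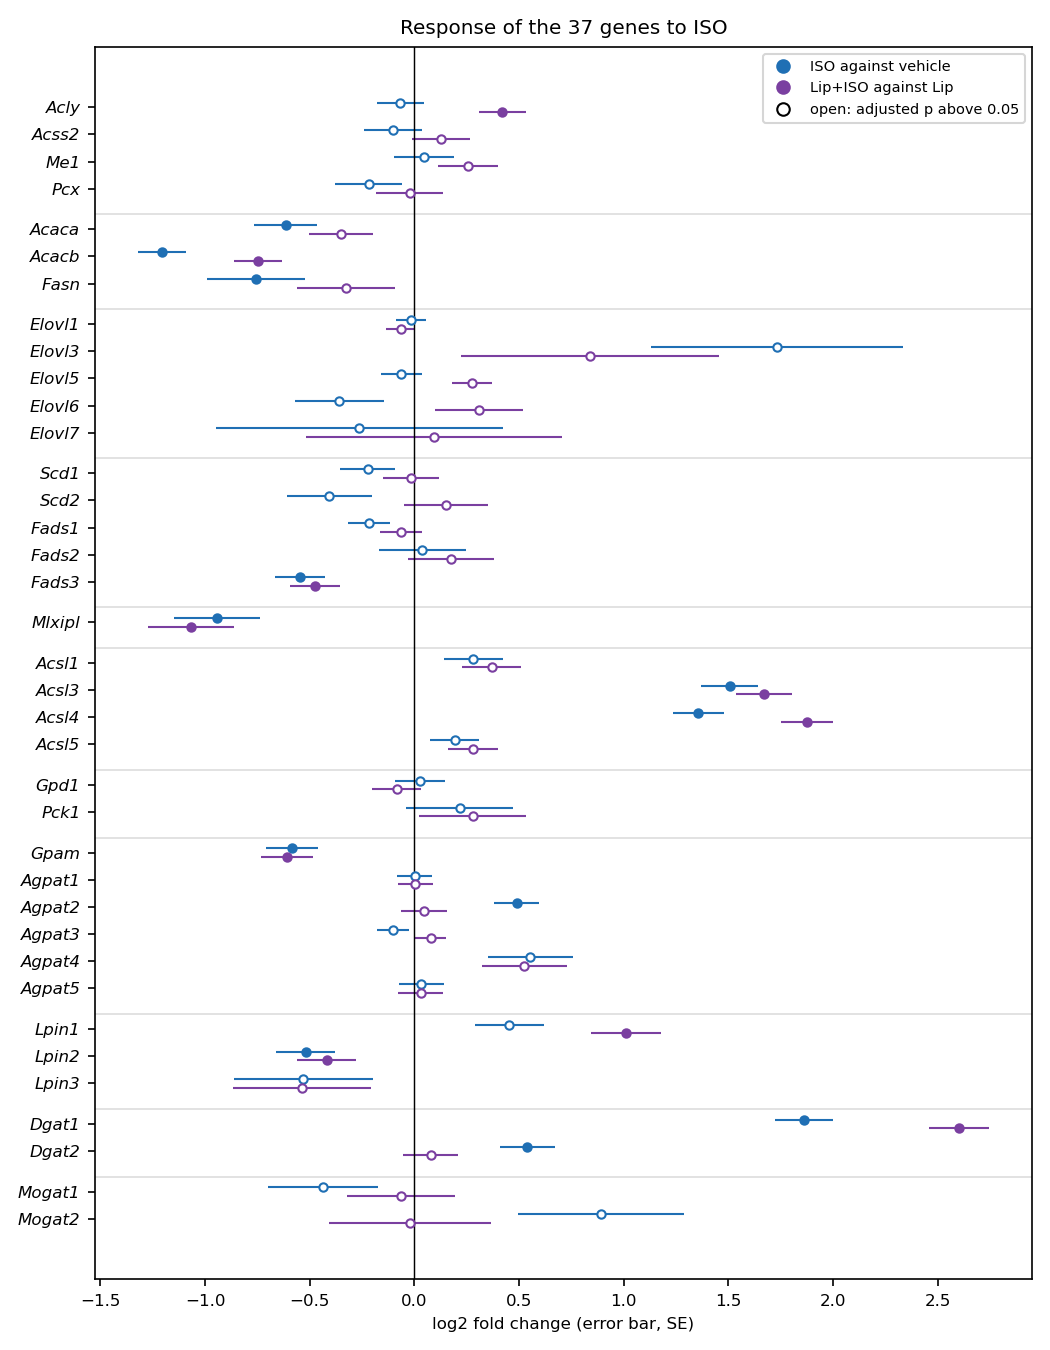
Log2 fold change with SE of each of the 37 genes in ISO against DMSO (blue) and in Lip+ISO against Lip (purple), grouped by step of the pathway, with filled points at an adjusted p at or under 0.05. Dgat1, Acsl3 and Acsl4 lie farthest to the right among filled points and Acacb and Mlxipl farthest to the left, and Elovl3 and Elovl7 have the widest error bars.

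The supply of acetyl-CoA and NADPH is represented by Acly (ATP citrate lyase, which cleaves citrate to cytosolic acetyl-CoA), Acss2 (acetyl-CoA synthetase), Me1 (malic enzyme, a source of NADPH) and Pcx (pyruvate carboxylase, which replenishes oxaloacetate). None of the 4 passed in ISO against DMSO with edgeR or DESeq2, and none had an unadjusted edgeR p under 0.05. Acly was measured at 707, 716 and 857 CPM with DMSO, 740.3, 694 and 742 CPM with ISO, 709, 679.8 and 828 CPM with Lip and 983, 867 and 1116 CPM with Lip+ISO. The Lip+ISO libraries lay above all others. Acly rose in Lip+ISO against Lip (0.42 ± 0.113 SE on the log2 scale, adjusted p = 0.0142), a call lost without Lip replicate 2 (log2 fold change 0.36). Pcx, the highest of the 4 per length, was measured at 2906, 2165 and 2415 CPM with DMSO, 2595, 2010.3 and 1829 CPM with ISO, 2664, 2085 and 2206 CPM with Lip and 2073, 2091 and 2688 CPM with Lip+ISO. Its groups overlapped, and the 95% interval of its log2 fold change in ISO against DMSO ran from -0.57 to 0.13. Pcx overlaps Lrfn4 on the opposite strand, and as nothing states that strand was used in counting, reads of the pair cannot be told apart. Acss2 averaged 123 ± 8.54 CPM (SD, n = 3) with DMSO and 115 ± 11.9 CPM with ISO, and Me1 300.4 ± 22.8 CPM and 310.1 ± 22.1 CPM.

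In malonyl-CoA and palmitate synthesis 3 of 3 genes fell in ISO against DMSO, where 13.9% of all genes fell. In Lip+ISO against Lip 1 of 3 fell, where 15.8% of all genes did. The calls of Acaca and Fasn depended on single libraries, as given below. Acacb encodes acetyl-CoA carboxylase 2, whose malonyl-CoA at the mitochondrion restrains fatty acid oxidation. The gene spans chr5:114615527-114700767 on the plus strand (mm9). It was measured at 222, 197 and 232 CPM with DMSO and at 103, 89.6 and 90.0 CPM with ISO, so every ISO library lay below every DMSO library. With Lip it was at 222, 180.0 and 210.1 CPM and with Lip+ISO at 109, 114 and 142 CPM, again without overlap. The log2 fold changes were -1.21 ± 0.116 SE in ISO against DMSO (adjusted p = 1.12e-05) and -0.75 ± 0.115 SE in Lip+ISO against Lip (adjusted p = 0.00032). In the presence of ISO the Lip+ISO libraries lay above the ISO libraries, by 0.37 ± 0.115 SE, which did not pass (adjusted p = 0.0698) and did with DESeq2 (adjusted p = 0.0237).

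Fasn, the fatty acid synthase that builds palmitate, was at 649.8, 665 and 945 CPM with DMSO, 414, 415 and 507 CPM with ISO, 638, 629 and 971 CPM with Lip and 436, 534 and 816 CPM with Lip+ISO. All 3 ISO libraries lay below the DMSO libraries, while the Lip and Lip+ISO libraries overlapped. It fell in ISO against DMSO (-0.76 ± 0.234 SE on the log2 scale, adjusted p = 0.0306). That call was lost without DMSO replicate 3, ISO replicate 1 or ISO replicate 2, with log2 fold changes of -0.71 to -0.57. In Lip+ISO against Lip the change was -0.33 ± 0.233 SE (adjusted p = 0.35). When edgeR's fit held a block for the replicate, Fasn fell there too (-0.34, adjusted p = 0.0149). Acaca, acetyl-CoA carboxylase 1 of the cytosol, was at 76.8, 72.3 and 85.4 CPM with DMSO and 54.8, 44.8 and 53.8 CPM with ISO, with no overlap. It fell by 0.61 ± 0.152 SE on the log2 scale (adjusted p = 0.0103), a call lost without ISO replicate 2 (log2 fold change -0.53). Its Lip+ISO libraries, at 44.1, 56.8 and 74.2 CPM, overlapped the Lip libraries (74.7, 70.4 and 78.3 CPM). Acaca did not pass there (-0.35, adjusted p = 0.11), but fell in the edgeR fit blocked by replicate (-0.36, adjusted p = 0.0323). The summed level of both carboxylases was 34.24 CPM per kb with DMSO and 16.76 CPM per kb with ISO. Acacb made 74.7 ± 0.678% of it with DMSO (SD, n = 3), 66.2 ± 2.02% with ISO, 74.4 ± 1.44% with Lip and 69.2 ± 2.92% with Lip+ISO.

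Mlxipl, the gene of the transcription factor ChREBP that drives lipogenic genes when glucose is plentiful, moved the same way as that step. The gene spans chr5:135582761-135614252 on the plus strand (mm9). It was measured at 41.7, 46.0 and 56.8 CPM with DMSO and 22.2, 21.2 and 31.8 CPM with ISO. With Lip it was at 36.8, 38.1 and 52.1 CPM and with Lip+ISO at 16.2, 18.8 and 25.7 CPM. ISO libraries lay below their counterparts in both pairs of groups. The log2 fold changes were -0.94 ± 0.205 SE (adjusted p = 0.00491) and -1.07 ± 0.206 SE (adjusted p = 0.00182).

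**Figure D3:**
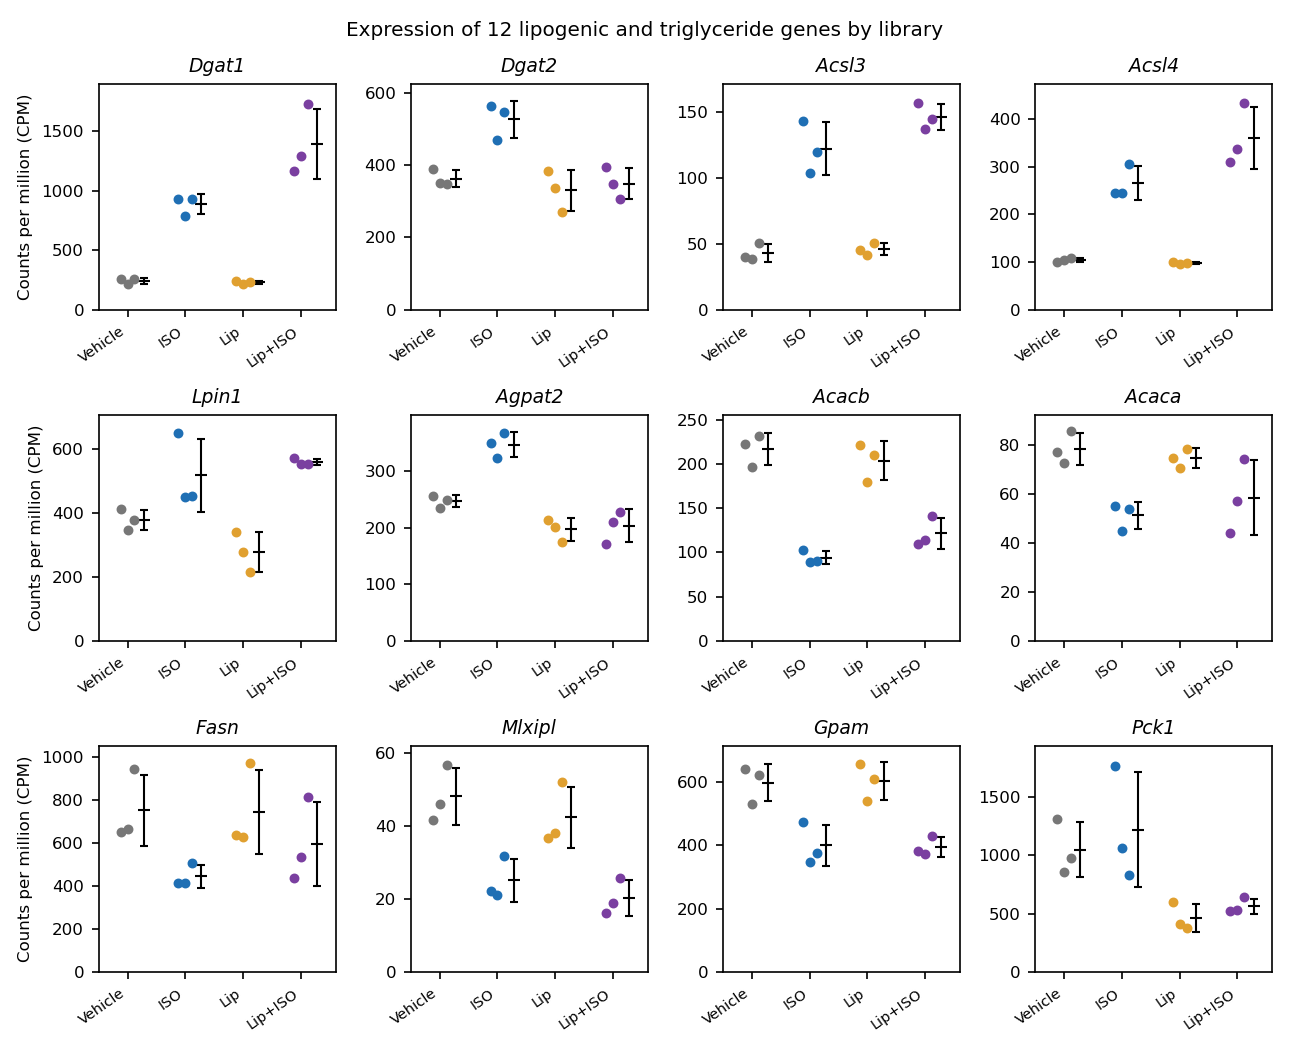
CPM (linear axis from 0) of 12 genes in each of the 12 libraries, 3 points per group, with the group mean and SD in black. For Dgat1, Acsl3 and Acsl4 all ISO and Lip+ISO libraries lie above all libraries without ISO, for Acacb, Mlxipl and Gpam they lie below, and for Pck1 all Lip and Lip+ISO libraries lie below the DMSO and ISO libraries.

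Elongation of fatty acids, catalysed by the ELOVL enzymes, showed no member that passed in either ISO comparison with edgeR. At an unadjusted p under 0.05 there was 1 in each, Elovl3 without and Elovl5 with the inhibitors, and both passed with DESeq2. Elovl1, the highest of the 5 per length and an elongase of very long chains, was at 88.7, 91.0 and 95.5 CPM with DMSO, 89.2, 91.9 and 91.1 CPM with ISO, 88.0, 90.0 and 91.8 CPM with Lip and 93.7, 83.7 and 80.5 CPM with Lip+ISO. Its spread was small, and the 95% interval of its log2 fold change in ISO against DMSO ran from -0.17 to 0.14. Elovl6, which elongates palmitate to stearate, was at 28.8, 31.1 and 40.3 CPM with ISO and 75.7, 48.0 and 50.4 CPM with Lip+ISO, with a higher level in the latter (0.80 ± 0.212 SE on the log2 scale, adjusted p = 0.035). That call was lost without ISO replicate 1, ISO replicate 2 or Lip+ISO replicate 1, with log2 fold changes of 0.56 to 0.75. With DMSO it averaged 42.9 ± 11.3 CPM (SD, n = 3) and with Lip 46.8 ± 4.73 CPM. Elovl5, an elongase of polyunsaturated chains, averaged 114 ± 6.72 CPM with DMSO, 109 ± 10.5 CPM with ISO, 111 ± 10.6 CPM with Lip and 134 ± 10.5 CPM with Lip+ISO. Elovl3, known from brown fat and induced there by cold, was near the limit of detection, at 0.316, 0.126 and 0.274 CPM with DMSO and 1.497, 0.407 and 0.605 CPM with ISO. Its log2 fold change of 1.73 ± 0.602 SE did not pass (adjusted p = 0.0506) and did with DESeq2 (adjusted p = 0.0411). Elovl7 averaged 0.297 ± 0.132 CPM with DMSO and 0.248 ± 0.161 CPM with ISO.

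Desaturation was carried by the highest transcript of the whole set. Scd1 was at 10495, 8818 and 10843 CPM with DMSO, 10032, 8276 and 7545 CPM with ISO, 9944, 8296 and 9319.5 CPM with Lip and 8318, 8798 and 10128 CPM with Lip+ISO. The groups overlapped, and the 95% interval of its log2 fold change ran from -0.51 to 0.064 in ISO against DMSO and from -0.30 to 0.27 in Lip+ISO against Lip, so a change of 2-fold lies outside both. Scd1 made 96.3 ± 0.815% of the summed Scd1 and Scd2 level per kb with DMSO (SD, n = 3) and 96.7 ± 0.936% with ISO. Scd2, another isoform of the enzyme, averaged 426 ± 100.2 CPM with DMSO and 322 ± 50.5 CPM with ISO. Of the front-end desaturases of polyunsaturated fatty acids, Fads1 averaged 121 ± 13.8 CPM with DMSO and 104 ± 2.95 CPM with ISO, and Fads2 16.7 ± 4.46 CPM and 17.1 ± 1.98 CPM. Fads3, which desaturates the sphingoid base of ceramides, was the member of this step that fell. It was at 679, 650.0 and 774 CPM with DMSO, 506, 486 and 447 CPM with ISO, 617, 616 and 802 CPM with Lip and 451, 464 and 550.3 CPM with Lip+ISO. It fell by 0.55 ± 0.120 SE on the log2 scale in ISO against DMSO (adjusted p = 0.00524) and by 0.47 ± 0.120 SE in Lip+ISO against Lip (adjusted p = 0.01), the latter lost without Lip replicate 3 (log2 fold change -0.34).

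In activation of fatty acids to acyl-CoA, 2 of 4 long-chain acyl-CoA synthetase genes (Acsl3 and Acsl4) rose in both ISO comparisons. Acsl1 and Acsl5 passed in neither with edgeR. Of all genes, 12.3% rose in ISO against DMSO and 11.5% in Lip+ISO against Lip, and the share rising in both was not counted. Acsl3 (chr1:78654400-78704318, plus strand, mm9), an isoform of the endoplasmic reticulum and lipid droplets, was at 39.6, 38.2 and 50.8 CPM with DMSO and 143, 103 and 119 CPM with ISO. With Lip it was at 45.1, 41.8 and 50.5 CPM and with Lip+ISO at 156, 137 and 144 CPM. Every library with ISO lay above every library without it, and the log2 fold changes were 1.51 ± 0.135 SE (adjusted p = 6.31e-06) and 1.67 ± 0.135 SE (adjusted p = 1.42e-06). Acsl3 shares 9777 bp of its span with Utp14b on the same strand (33.76 CPM on average), so the split of reads between these genes is uncertain.

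Acsl4 (chrX:138752536-138825078, minus strand, mm9), which prefers arachidonic acid, was at 99.4, 103 and 108 CPM with DMSO and 245, 245 and 306 CPM with ISO. The Lip libraries held 99.5, 96.5 and 98.3 CPM and the Lip+ISO libraries 309, 338 and 433 CPM. All libraries with ISO lay above all without it, and the Lip+ISO libraries lay above the ISO libraries. The log2 fold changes were 1.36 ± 0.122 SE in ISO against DMSO (adjusted p = 6.37e-06) and 1.88 ± 0.124 SE in Lip+ISO against Lip (adjusted p = 2.28e-07). In Lip+ISO against ISO it was 0.44 ± 0.120 SE (adjusted p = 0.0386). This last call was lost without any 1 of 8 libraries (each DMSO library, Lip replicates 2 and 3, ISO replicates 1 and 2, or Lip+ISO replicate 3), with log2 fold changes of 0.30 to 0.44, and also with library totals as the only scaling or with only these groups in the fit.

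Acsl1, the main isoform of white fat, was at 2742, 2271 and 2351 CPM with DMSO, 3439.8, 2687 and 2825 CPM with ISO, 2039, 1732 and 1497 CPM with Lip and 1982, 2273 and 2547 CPM with Lip+ISO. The Lip libraries lay below the DMSO libraries, and the Lip+ISO libraries below the ISO libraries. None of its contrasts passed with edgeR. The log2 fold change was 0.28 ± 0.140 SE in ISO against DMSO (adjusted p = 0.156), -0.48 ± 0.140 SE in Lip against DMSO (adjusted p = 0.609), -0.40 ± 0.140 SE in Lip+ISO against ISO (adjusted p = 0.104) and 0.37 ± 0.140 SE in Lip+ISO against Lip (adjusted p = 0.0701). DESeq2 called the last of these (0.40, adjusted p = 0.0202), and with library totals as the only scaling edgeR called Lip+ISO against ISO (-0.43, adjusted p = 0.039). Acsl5 averaged 66.8 ± 5.00 CPM (SD, n = 3) with DMSO and 76.2 ± 10.9 CPM with ISO. Acsl1 made 91.8 ± 1.06% of the summed level of the 4 isoforms per kb with DMSO, 86.7 ± 1.48% with ISO, 88.9 ± 1.52% with Lip and 80.0 ± 1.21% with Lip+ISO. Acsl4 made 3.05 ± 0.363%, 6.09 ± 1.16%, 3.92 ± 0.522% and 9.87 ± 0.722% in the same order, and Acsl3 2.02 ± 0.401%, 4.41 ± 0.239%, 2.95 ± 0.643% and 6.51 ± 1.09%. The summed level was 686.6, 883.4, 507.1 and 727.7 CPM per kb, so even in Lip+ISO most of the family was Acsl1.

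Glycerol 3-phosphate, the backbone of triglyceride, comes from glycolysis through Gpd1 (glycerol-3-phosphate dehydrogenase) and from glyceroneogenesis, in which Pck1 (phosphoenolpyruvate carboxykinase) is the key enzyme. Neither passed in an ISO comparison with edgeR or DESeq2, or had an unadjusted edgeR p under 0.05 there. Gpd1 was at 2814, 2259 and 2418 CPM with DMSO, 2846, 2307 and 2479.8 CPM with ISO, 2450.5, 2135 and 1964 CPM with Lip and 2208, 1925 and 2043 CPM with Lip+ISO. The DMSO and ISO libraries covered nearly the same range, and the 95% interval of the log2 fold change ran from -0.23 to 0.28. The Lip+ISO libraries of Gpd1 lay below its ISO libraries, by -0.31 ± 0.118 SE on the log2 scale, which did not pass (adjusted p = 0.136). It passed with edgeR with library totals as the only scaling (adjusted p = 0.0475) and with the replicate as a block (adjusted p = 0.00858). Pck1 set the inhibitor groups further apart. The gene spans chr2:172978574-172984754 on the plus strand (mm9). It was at 1311, 858 and 979 CPM with DMSO and 1770.3, 1061 and 828 CPM with ISO, and at 600.0, 413 and 379 CPM with Lip and 524, 526 and 639 CPM with Lip+ISO. All 6 libraries with inhibitors lay below all 6 without them. Pck1 fell in Lip+ISO against ISO by 1.11 ± 0.258 SE on the log2 scale (2.17-fold lower, adjusted p = 0.0174), a call lost without ISO replicate 1 (log2 fold change -0.75), Lip+ISO replicate 1 (-1.07) or Lip+ISO replicate 2 (-1.06). In Lip against DMSO the log2 fold change was of like size, -1.18 ± 0.259 SE, with an unadjusted p = 0.000594, an adjusted p = 0.251 with edgeR and an adjusted p = 0.00144 with DESeq2.

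Acylation of glycerol 3-phosphate to phosphatidate begins with GPAM, the mitochondrial acyltransferase that sets the pace of the route, and goes on with the AGPAT enzymes. Gpam was at 641, 531 and 623 CPM with DMSO and 474, 348 and 377 CPM with ISO. Its Lip libraries held 658, 539 and 611 CPM and its Lip+ISO libraries 381, 373 and 430.2 CPM. Libraries with ISO lay below those without it in both pairs, by -0.58 ± 0.124 SE (adjusted p = 0.00429) and -0.61 ± 0.124 SE (adjusted p = 0.00252) on the log2 scale. Agpat2, the AGPAT isoform whose loss causes lipodystrophy, went the other way without inhibitors. It was at 256, 235 and 249.7 CPM with DMSO, 349, 323 and 368 CPM with ISO, 214, 201 and 175 CPM with Lip and 171, 211 and 228 CPM with Lip+ISO. The ISO libraries lay above all others, and Lip and Lip+ISO overlapped. It rose by 0.49 ± 0.109 SE on the log2 scale in ISO against DMSO (adjusted p = 0.00571) and was lower by 0.77 ± 0.109 SE in Lip+ISO than in ISO (adjusted p = 0.000816). Its share of the AGPAT level per kb was 41.2 ± 0.521% with DMSO (SD, n = 3), 49.9 ± 1.52% with ISO, 36.6 ± 2.00% with Lip and 36.0 ± 4.29% with Lip+ISO. Agpat1, Agpat3, Agpat4 and Agpat5 passed in none of the comparisons with edgeR. They averaged 175 ± 15.0, 413 ± 23.1, 22.1 ± 1.29 and 33.1 ± 2.23 CPM with DMSO and 175 ± 10.8, 385 ± 21.8, 32.5 ± 2.57 and 33.8 ± 4.64 CPM with ISO. For Agpat4, higher in ISO by 0.55 ± 0.204 SE, the adjusted p was 0.0627 with edgeR and 0.0319 with DESeq2. It passed with edgeR with only these groups in the fit (adjusted p = 0.00373) and with the replicate as a block (adjusted p = 0.0356). DESeq2 also called it in Lip+ISO against Lip (adjusted p = 0.0325).

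The lipins convert phosphatidate to diacylglycerol, and their genes moved in different directions. Lpin1, the main lipin of white fat, was at 412, 347 and 377 CPM with DMSO and 650.1, 450.0 and 454 CPM with ISO. With Lip it was at 341, 277 and 215 CPM and with Lip+ISO at 571, 552 and 555 CPM. Libraries with ISO lay above their counterparts in both pairs, and the difference passed in Lip+ISO against Lip (1.01 ± 0.166 SE on the log2 scale, adjusted p = 0.000521). In ISO against DMSO it was 0.45 ± 0.165 SE (adjusted p = 0.0597), and with DESeq2 it passed (adjusted p = 0.0259). Lpin2 was at 31.0, 34.9 and 37.6 CPM with DMSO, 21.5, 21.1 and 29.7 CPM with ISO, 33.5, 32.7 and 34.9 CPM with Lip and 29.4, 22.4 and 23.8 CPM with Lip+ISO. It fell by 0.52 ± 0.141 SE on the log2 scale in ISO against DMSO (adjusted p = 0.0168), a call lost without DMSO replicate 3, ISO replicate 1 or ISO replicate 2 (log2 fold changes of -0.46 to -0.43). It fell by 0.42 ± 0.141 SE in Lip+ISO against Lip (adjusted p = 0.0422), a call lost without any 1 of 6 libraries (DMSO replicate 2, each Lip library, Lip+ISO replicates 2 and 3), with log2 fold changes of -0.45 to -0.33. Lpin3 averaged 16.3 ± 6.03 CPM (SD, n = 3) with DMSO and 11.3 ± 3.65 CPM with ISO.

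The last acylation, from diacylglycerol to triglyceride, is shared by a pair of unrelated enzymes. DGAT1 is held to re-esterify fatty acids set free by lipolysis, and DGAT2 to work mostly on newly made ones. Dgat1 showed the largest rise among the 37 genes in both ISO comparisons with edgeR. The gene spans chr15:76332445-76342248 on the minus strand (mm9). It was at 258, 217 and 258 CPM with DMSO and 935, 791 and 935 CPM with ISO. The level was 241, 214 and 234 CPM with Lip and 1164, 1296 and 1728 CPM with Lip+ISO. The ISO libraries lay above all libraries without ISO, and the Lip+ISO libraries above the ISO libraries. The log2 fold change was 1.86 ± 0.140 SE in ISO against DMSO (adjusted p = 1.40e-06) and 2.60 ± 0.144 SE in Lip+ISO against Lip (adjusted p = 4.83e-08), a 6.08-fold rise. Lip+ISO exceeded ISO by 0.65 ± 0.136 SE (adjusted p = 0.00923), a call lost without ISO replicate 2 (log2 fold change 0.58).

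Dgat2 was at 389, 351 and 347 CPM with DMSO, 564, 469 and 548 CPM with ISO, 384, 337 and 271 CPM with Lip and 394, 348 and 306 CPM with Lip+ISO. The ISO libraries lay above all other libraries. It rose by 0.54 ± 0.130 SE on the log2 scale in ISO against DMSO (adjusted p = 0.00902). With the inhibitors the change was 0.078 ± 0.130 SE (adjusted p = 0.72), and Lip+ISO was below ISO by 0.59 ± 0.130 SE (adjusted p = 0.0129). That last call was lost without ISO replicate 3 (log2 fold change -0.57) or Lip+ISO replicate 3 (-0.50). The makeup of the DGAT pool changed accordingly. Dgat1 made 46.3 ± 2.32% of the summed level of both genes per kb with DMSO (SD, n = 3), 68.3 ± 0.311% with ISO, 47.3 ± 4.46% with Lip and 83.2 ± 4.40% with Lip+ISO. In single libraries the share was 44.2 to 48.8% with DMSO, 68 to 68.6% with ISO, 44.6 to 52.5% with Lip and 79.1 to 87.9% with Lip+ISO, with overlap between DMSO and Lip only. The summed level was 300, 739.4, 277.8 and 950.3 CPM per kb in that order. These shares come from the same counts as the tests above and were not tested on their own.

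**Figure D4:**
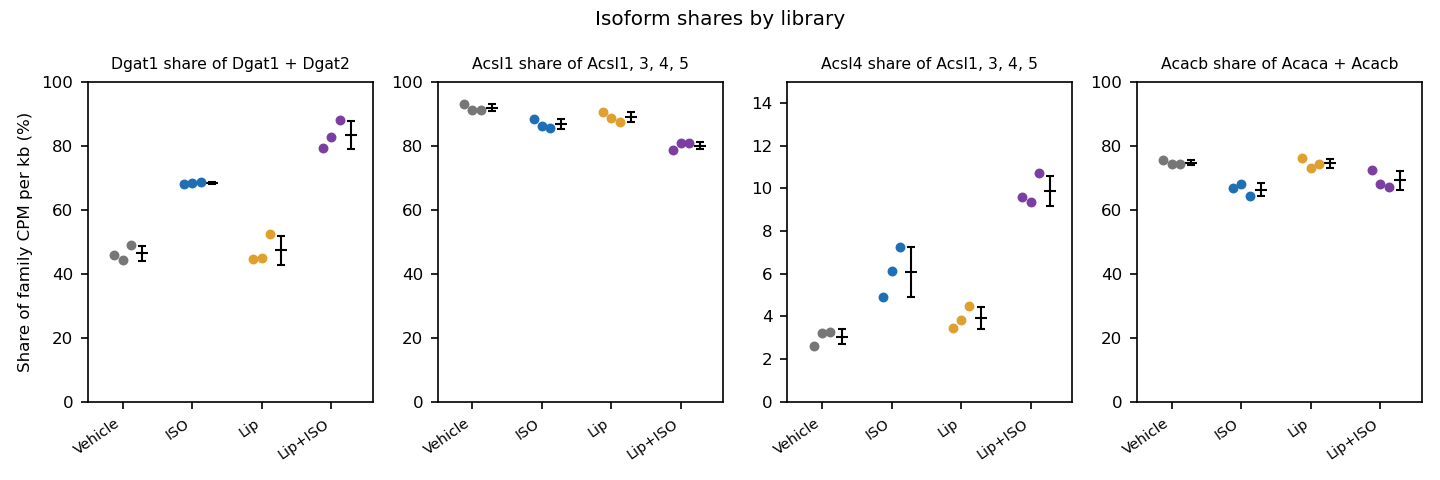
Share (%) of Dgat1, Acsl1, Acsl4 and Acacb in the summed CPM per kilobase of their isoforms in each library, 3 points per group, with the mean and SD in black. The axis of Acsl4 ends at 15%, the others at 100%. The Dgat1 share is 44.2 to 52.5% in the 6 libraries without ISO, 68 to 68.6% with ISO and 79.1 to 87.9% with Lip+ISO.

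The monoacylglycerol route, a way around glycerol 3-phosphate that matters in the gut, was low in these cells. Mogat1 was at 6.79, 3.78 and 6.46 CPM with DMSO, 4.98, 3.84 and 3.81 CPM with ISO, 6.66, 4.57 and 7.14 CPM with Lip and 5.13, 5.00 and 7.47 CPM with Lip+ISO. Its groups overlapped, and the 95% interval of its log2 fold change in ISO against DMSO ran from -1.01 to 0.13. Mogat2 averaged 1.02 ± 0.270 CPM (SD, n = 3) with DMSO and 1.93 ± 0.543 CPM with ISO. Its log2 fold change of 0.89 ± 0.396 SE did not pass (adjusted p = 0.116).

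The inhibitors alone left the set with no gene that passed in Lip against DMSO, where 0.0517% of all genes passed, 0.00738% higher and 0.0443% lower. At an unadjusted p under 0.05 there were 4 of 37 with edgeR, all lower with Lip (Acsl1, Agpat2, Lpin1 and Pck1). The share of all genes under this unadjusted bound was not counted. DESeq2 called 1 of 37 (Pck1), where 0.421% of all genes passed. In Lip+ISO against ISO, 4 of 37 were higher (Acly, Acsl4, Dgat1 and Elovl6), 3 were lower (Agpat2, Dgat2 and Pck1) and 30 did not pass. This is 18.9% of the 37, where 8.94% of all genes passed, 4.36% higher and 4.59% lower. Of these 7 only Pck1 changed by 2-fold or more, where 1.99% of all genes did. For Acly the difference was 0.45 ± 0.113 SE on the log2 scale (adjusted p = 0.0279), and it was lost without any 1 of the ISO libraries or Lip+ISO replicate 3 (log2 fold changes of 0.36 to 0.46). All 4 higher calls were lost without ISO replicate 2. The median log2 fold change of the 37 was 0.111, beside -0.00901 over all genes. The sums of fibroblast, endothelial and mesothelial markers given above did not overlap between ISO and Lip+ISO, and their part in these values was not tested.

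**Figure D5:**
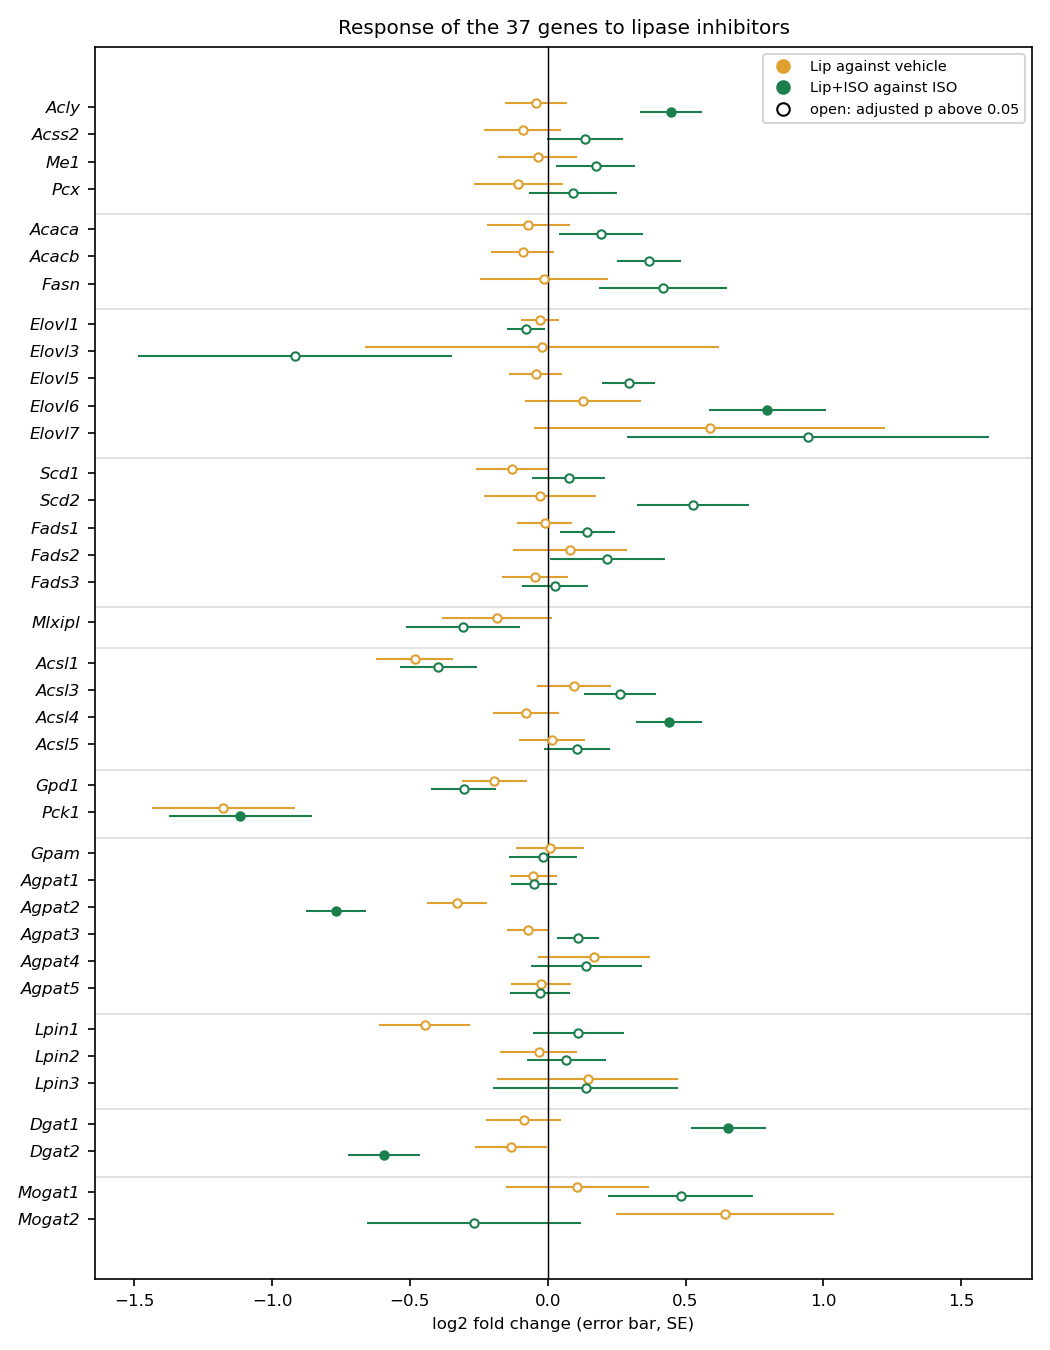
Log2 fold change with SE of each of the 37 genes in Lip against DMSO (orange) and Lip+ISO against ISO (green), grouped by step, with filled points at an adjusted p at or under 0.05. No orange point is filled, and among the green ones Elovl6, Dgat1, Acly and Acsl4 are filled to the right and Pck1, Agpat2 and Dgat2 to the left.

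Whether the response to ISO differed with the inhibitors was tested as an interaction, the log2 response in Lip+ISO against Lip minus that in ISO against DMSO. Without a replicate block, none of the 37 passed with edgeR on all 12 libraries, and 9 had an unadjusted p under 0.05. The share of all genes under that unadjusted bound was not counted, so the 9 have no share to be set against. At the adjusted p, 1.62% of all genes passed, 0.901% higher and 0.724% lower. Dgat1 came nearest, at 0.74 ± 0.192 SE (adjusted p = 0.0821). With DESeq2 it was the 1 of the 37 that passed (0.76, adjusted p = 0.00709), and it also passed with edgeR without Lip+ISO replicate 1 (0.86, adjusted p = 0.0282). With the replicate as a block, edgeR called 5 of the 37 higher (Acly, Acsl4, Dgat1, Elovl5 and Lpin1), where 6.63% of all genes passed. Without the block, the other 8 with an unadjusted p under 0.05 were Acly (0.49 ± 0.160 SE), Acacb (0.46), Acsl4 (0.52), Elovl5 (0.34), Elovl6 (0.67), Lpin1 (0.56), Agpat2 (-0.44) and Dgat2 (-0.46). A positive value means a higher response with inhibitors. For Agpat2 and Dgat2, whose levels rose with ISO only in the absence of inhibitors by the separate tests, the interaction had adjusted p = 0.21 and 0.282, so the separate calls are not shown to differ. Acaca and Fasn fell in ISO against DMSO alone without a block, and in both ISO comparisons when edgeR's fit held one for the replicate. Their interaction without a block was 0.26 ± 0.214 SE and 0.43 ± 0.329 SE (adjusted p = 0.648 and 0.626).

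A list of 41 other genes of lipogenesis and triglyceride synthesis, among them transcription factors, NADPH enzymes, further elongases and acyltransferases, was set beside the 37. Of these, 40 were found by symbol and 36 were tested. In ISO against DMSO 5 of 36 were higher and 4 lower (25%, where 26.2% of all genes passed), and in Lip+ISO against Lip 8 were higher and 3 lower (30.6%, where 27.3% passed). In Lip+ISO against ISO 2 were higher and 3 lower (13.9%, where 8.94% passed). In Lip against DMSO 1 of 36 was lower (2.78%, where 0.0517% of all genes passed in either direction), namely Insig1, which holds SREBP back in the endoplasmic reticulum (log2 fold change -0.90 ± 0.132 SE, adjusted p = 0.0331). Srebf1, the gene of the lipogenic factor SREBP1, was at 315, 287 and 318 CPM with DMSO, 198, 166 and 179 CPM with ISO, 243, 217 and 238 CPM with Lip and 96.8, 92.3 and 106 CPM with Lip+ISO, with no overlap between any of the groups. It fell in ISO against DMSO (-0.76 ± 0.0874 SE, adjusted p = 4.78e-05) and in Lip+ISO against Lip (-1.24 ± 0.0886 SE, adjusted p = 4.85e-07). It was also lower in Lip+ISO than in ISO (-0.88 ± 0.0881 SE, adjusted p = 5.50e-05). In Lip against DMSO the value for Srebf1 was -0.40 ± 0.087 SE, with an adjusted p = 0.251 with edgeR and 0.0133 with DESeq2. Its interaction was -0.48 ± 0.123 SE, with an adjusted p = 0.0778 with edgeR and 0.0205 with DESeq2. With the replicate as a block, edgeR called both (adjusted p = 0.0251 and 0.00864). Agpat9, the older symbol of Gpat3, a glycerol-3-phosphate acyltransferase of the endoplasmic reticulum, was at 338, 330.4 and 349 CPM with DMSO, 846, 702 and 697 CPM with ISO, 246, 221 and 196 CPM with Lip and 408, 432 and 519 CPM with Lip+ISO. It rose with ISO both without inhibitors (1.14 ± 0.115 SE, adjusted p = 1.60e-05) and with them (1.03 ± 0.115 SE, adjusted p = 2.16e-05), while Gpam, which catalyses the same reaction at the mitochondrion, fell in both. Agpat9 was lower in Lip+ISO than in ISO (-0.72 ± 0.114 SE, adjusted p = 0.0017), a call lost without replicate 2 of every group (log2 fold change -0.74). In Lip against DMSO the value for Agpat9 was -0.62 ± 0.114 SE, with an adjusted p = 0.105 with edgeR and 0.000279 with DESeq2. Acsbg1 and Elovl4, at an average of 0.962 ± 0.160 and 1.82 ± 0.789 CPM with DMSO, were higher in ISO by 1.65 ± 0.323 SE (adjusted p = 0.00248) and 1.13 ± 0.365 SE (adjusted p = 0.038). Acsbg1 was lower in Lip+ISO than in ISO (-1.23 ± 0.316 SE, adjusted p = 0.0301), a call lost without ISO replicate 2 or 3 or Lip+ISO replicate 2 or 3 (log2 fold changes of -1.25 to -1.08). The call of Elovl4 was lost without any 1 of 6 libraries (DMSO replicates 1 and 3, each ISO library, Lip+ISO replicate 2), with log2 fold changes of 0.87 to 1.21.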

How the data were processed

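RNA of cultured mature epididymal white adipocytes was sequenced in 12 libraries, 4 groups of 3, with groups and replicate numbers read from the sample titles. The authors used STAR 2.4.2a to align reads to mm9 and made the deposited raw counts per RefSeq gene with HOMER, which kept 1 read per position and length, and iRNA-seq. Strand use is not given in the sources used here. The deposited table also holds lengths, which served for CPM per kb, and all its sample columns were used. Limiting reads per position can hold down the counts of the most abundant genes.

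Counts were analysed in R 4.3.3 with edgeR 4.0.16: genes kept by filterByExpr (13543), TMM scaling (factors 0.924 to 1.07), a quasi-likelihood fit of 4 group means to all 12 libraries, two-sided tests of 4 contrasts of 2 groups and the interaction, and Benjamini-Hochberg adjustment over all genes. The common biological coefficient of variation was 0.163. Alternatives were DESeq2 1.42.0, other scalings, no filter, a replicate block, only the groups compared, and each library left out. The steps were tested on simulated data. Levels per library are CPM after TMM scaling, and the error of a mean is the SD of 3 libraries.

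The genes and lists were chosen with earlier results of these data known. All 37 genes have at least 1 value in the text. Values in every library and full tests are given for genes called with a change of at least 2-fold in a contrast of 2 groups, or in the interaction, and for the highest gene per length of each step. Some other genes that passed a test are also given by library. Other pathway genes are named where called with such a size, and Insig1, a single count in its contrast, was named after its value was seen. One symbol of that list was not matched.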

Additional observations from a re-analysis of the deposited data

How the results depend on the processing

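The 37 genes gave 29 calls over the contrasts of 2 groups. Of these, 13 held under every alternative run, 16 were lost in at least 1 of 15 fits that leave libraries out and 4 in at least 1 of the 6 other fits, and no call changed sign. With a change of 2-fold or more also required, ISO against DMSO kept 3 higher and 1 lower. Lip+ISO against Lip then kept 4 higher and 1 lower, and Lip+ISO against ISO 0 higher and 1 lower. With DESeq2 there were 8 higher and 7 lower in ISO against DMSO and 1 lower in Lip against DMSO. There were 8 higher and 5 lower in Lip+ISO against Lip and 1 higher in the interaction. In the same order, 29.9%, 0.421%, 29.8% and 4.28% of all genes passed in either direction, beside 15, 1, 13 and 1 of the 37. In Lip+ISO against ISO, DESeq2 called 9 of the 37, where 12.8% of all genes passed. With only the groups compared, Lip+ISO against ISO gave 2 higher, and with library totals as the only scaling 5 lower. Library totals moved the median log2 fold change of all genes to -0.115 in Lip+ISO against Lip. The cause of these differences was not tested.

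Leaving out libraries gave 3 to 7 higher and 3 to 7 lower in ISO against DMSO, with 4 lower without ISO replicate 2 and the fewest without replicate 2 of every group. It gave 4 to 7 higher and 3 to 6 lower in Lip+ISO against Lip, with 3 lower without Lip replicate 3. It gave 0 to 4 higher and 1 to 3 lower in Lip+ISO against ISO, with 1, 0 and 2 higher without ISO replicate 1, ISO replicate 2 and Lip+ISO replicate 3. The interaction gave 0 to 1 higher, the 1 without Lip+ISO replicate 1.

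Samples share replicate numbers across groups, and the study describes independent experiments, but no label says that a number marks one. Deviations of same-numbered libraries from their group means correlated at 0.0373 to 0.369, over 0.1 in 17 of 18 pairs, and each library correlated best with its own number in 34 of 36 comparisons, a hint from the data and not the design. With the replicate as a block, ISO against DMSO gave 9 higher and 7 lower, and Lip against DMSO 1 lower. Lip+ISO against Lip gave 8 higher and 7 lower, with Acaca and Fasn among the lower. Lip+ISO against ISO gave 7 higher and 6 lower, and the interaction 5 higher (Acly, Acsl4, Dgat1, Elovl5 and Lpin1). In the same order, 38.5%, 0.199%, 35.6%, 19.2% and 6.63% of all genes passed. None of the 29 calls was lost with the block.

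Elovl3 and Elovl7 had 3 to 34 and 3 to 30 counts per library, and their log2 fold changes in ISO against DMSO had the widest errors of the 37 genes. Elovl3 passed there with DESeq2, with its size factors, with library totals and with the block, and Mogat2 with the block.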
